A study of Mus musculus with 18 samples.

Results

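Small leucine-rich proteoglycans are a family of secreted matrix proteins, and 9 of them were followed across the left ventricles of mice given isoproterenol with or without minocycline. The members were chosen by name: Dcn (decorin), Bgn (biglycan), Lum (lumican), Fmod (fibromodulin), Ogn (osteoglycin), Prelp, Aspn (asporin), Omd (osteomodulin) and Podn (podocan). All 9 were found among the 48709 genes of the count table, and all 9 were among the 13281 genes with enough counts to be tested. The mice were male, wild type C57BL/6J animals 12 weeks old. Control animals carried an osmotic pump with saline. The isoproterenol group received that β-adrenergic agonist by pump at 30 mg/kg/day, and the combined group received the same infusion with daily intraperitoneal injections of minocycline, a tetracycline antibiotic, at 50 mg/kg. Left ventricles were collected at 21 days, and polyadenylated RNA was sequenced in 6 libraries per group. No group with minocycline alone was analysed here, so minocycline was compared only on the background of isoproterenol. Libraries are called by group and by a number given in record order, which pairs nothing between groups.

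These proteins share a core of leucine-rich repeats, which folds into a curved solenoid that binds the surface of collagen fibrils and limits how they grow and fuse. Decorin and biglycan carry chondroitin or dermatan sulfate chains, and fibromodulin, lumican and osteomodulin can carry keratan sulfate. In the heart they are made mainly by fibroblasts. Decorin and biglycan also bind growth factors such as TGF-β, and soluble biglycan can act on Toll-like receptors.

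Each library held 14203041 to 22688664 counts, and no pair of groups differed in its totals past the threshold (p = 0.0779 between isoproterenol and control, 0.102 between the combined group and isoproterenol, 0.665 between the combined group and control; exact permutation, 2-sided). Markers of ventricular cardiomyocytes were abundant in every library, with sums over 8 genes of 63359 to 70779 CPM (counts scaled to the size of the library) in controls, 53305 to 58224 CPM under isoproterenol and 52599 to 63606 CPM in the combined group. Myl7, an atrial light chain, ranged from 8.44 to 206 CPM, and 4 libraries (control 5 and 6, isoproterenol 5, combined 2) exceeded 80 CPM. Results are given below with and without these 4 libraries. The submitters' text speaks of pooled RNA, so a library may or may not be 1 animal, and each p-value rests on library-to-library spread, which may be partly technical.

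Dcn was the most abundant family member in every library. Levels of different genes are compared in TPM, a unit that divides out gene length. Dcn stood at 342 ± 49.3 TPM in control ventricles (SD, n = 6), with a median rank of 142 among 13268 nuclear genes. Bgn followed at 106 ± 23.7 TPM, and its highest library in any group stayed below the lowest Dcn library. Ogn at 45.0 ± 2.87 TPM and Lum at 44.1 ± 10.1 TPM came next, and their order was not fixed: Lum exceeded Ogn in 2 of 6 control libraries, 6 of 6 isoproterenol libraries and 6 of 6 combined libraries. Prelp at 21.5 ± 4.86 TPM and Aspn at 16.03 ± 2.79 TPM overlapped in control ventricles, although Prelp was the higher of the pair in 6 of 6 libraries there and in 3 of 6 isoproterenol libraries. Podn stood at 7.83 ± 2.24 TPM, Fmod at 2.49 ± 0.878 TPM and Omd at 0.884 ± 0.283 TPM, and these 3 ranges did not overlap in controls. Dcn alone made up 54.2 to 60.2% of the family's TPM in a library. Dcn, Bgn, Lum and Ogn together made up 90.8 to 92.1%. The median share of Ogn was 7.86% in control, 6.01% in isoproterenol and 5.19% in combined libraries, with overlapping ranges, and that of Bgn was 18.1%, 21.3% and 20.2%.

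**Figure D1:**
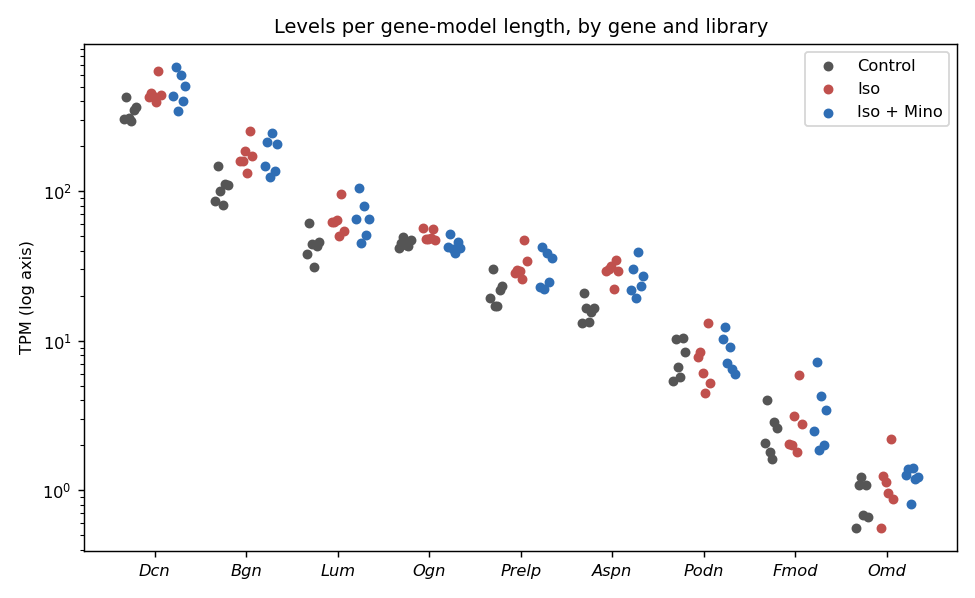
TPM of each family member (log axis) in every library, coloured by group, with genes ordered by level; points are libraries, n = 6 per group. Dcn lies above Bgn in all 18 libraries, while Lum and Ogn overlap.

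Asporin and biglycan rose under isoproterenol, and both calls were lost in some alternatives, that of biglycan in more. Aspn, which binds collagen and, like decorin and biglycan, interacts with TGF-β, had a lowest, median and highest value of 22.0, 25.6 and 33.0 CPM in controls. In isoproterenol ventricles the same values were 33.5, 43.3 and 49.7 CPM. The lowest isoproterenol library lay above the highest control library, so the groups did not overlap. It was the 1 member of 9 with that property, which 3.66% of tested genes had in the higher and 3.25% in the lower direction. Aspn was 1.62-fold higher (log2 fold change 0.70, SE 0.15, Benjamini-Hochberg adjusted p = 0.00459, quasi-likelihood test of edgeR). Bgn ranged from 208 over a median of 257 to 353 CPM in controls, and from 303 over 365 to 493 CPM under isoproterenol. The ranges overlapped, but 6 of 6 isoproterenol libraries lay above the control mean. Bgn was 1.46-fold higher (log2 0.55, SE 0.17, adjusted p = 0.0431 in the same edgeR test). The Bgn call was lost with upper-quartile scaling (adjusted p = 0.0562, edgeR), without a filter on low counts (adjusted p = 0.0838, edgeR) and in 10 of 18 fits that left out 1 library. The Aspn and Bgn calls were both lost without the 4 libraries high in Myl7 and with a fibroblast marker covariate, as given below. In all, 2 of 9 members were called, both higher, where 12.6% of all tested genes were called (6.94% higher, 5.62% lower). The members' median log2 fold change was 0.26, against 0.00 over all tested genes.

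**Figure D2:**
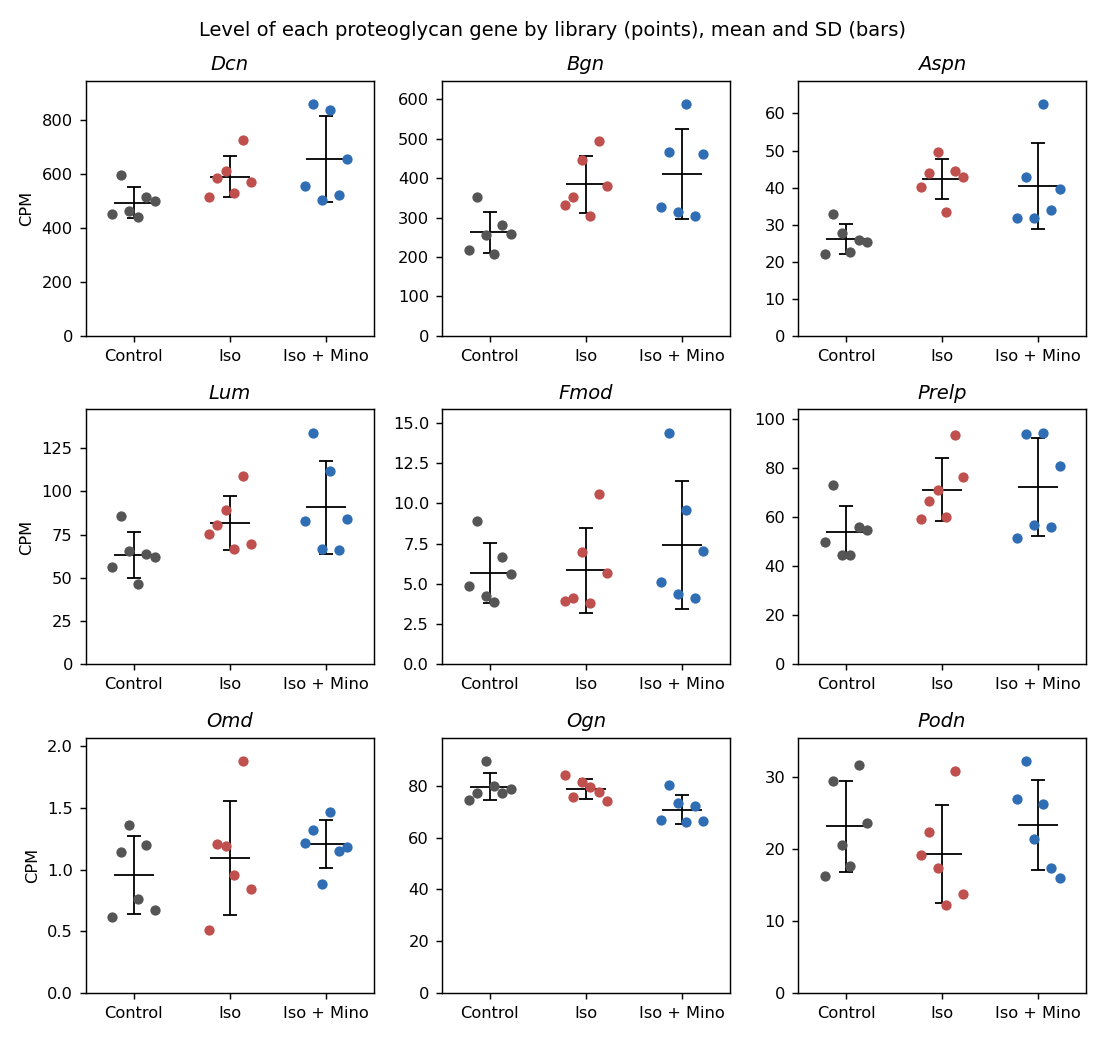
CPM of each of the 9 members in every library (1 panel per gene, linear axes from 0; points are libraries, black bars the group mean and SD, n = 6 per group; Iso is isoproterenol, Iso + Mino the combined group). Aspn under isoproterenol clears all controls, while Ogn is similar in control and isoproterenol ventricles and lower in most combined libraries.

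The other 7 members did not pass the test under isoproterenol alone. Dcn stood at 442, 481 and 597 CPM in controls (lowest, median, highest) and at 515, 578 and 728 CPM under isoproterenol. The groups overlapped, and the log2 difference was 0.26 (SE 0.13, adjusted p = 0.203, edgeR). Lum, which binds collagen and in the cornea sets fibril spacing, had control values of 46.4, 62.9 and 86.1 CPM and isoproterenol values of 66.8, 78.1 and 109 CPM, with a log2 difference of 0.37 (adjusted p = 0.189, edgeR). Prelp, which ties basement membranes to collagen, had 44.6, 52.3 and 73.2 CPM against 59.3, 68.7 and 93.5 CPM (log2 0.40, adjusted p = 0.126, edgeR). For Dcn, Lum and Prelp alike, 6 of 6 isoproterenol libraries lay above the control mean. For Ogn, also called mimecan and involved in collagen fibril formation, the 6 control libraries covered 74.6 to 89.5 CPM and the 6 isoproterenol libraries 74.0 to 84.3 CPM. The Ogn difference was -0.01 on the log2 scale, with a 95% interval from 0.910-fold to 1.08-fold. Fmod, a collagen-binding member abundant in tendon, covered 3.85 to 8.90 CPM in controls and 3.82 to 10.6 CPM under isoproterenol (log2 0.03, interval 0.627-fold to 1.67-fold). Podn covered 16.2 to 31.7 CPM and 12.2 to 30.9 CPM (log2 -0.27, adjusted p = 0.485, edgeR). Omd, known from bone, had 8 to 30 counts in a library over the 3 groups, which limits its precision. Its log2 difference was 0.18, with a 95% interval from 0.777-fold to 1.66-fold. Whether the members differ from each other in their response was not tested.

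Of 14 markers of fibroblasts, the main source of these proteins, 6 were called higher under isoproterenol and 0 lower (median log2 fold change 0.38). Their summed level was 1093 to 1455 CPM in controls, 1485 to 1943 CPM under isoproterenol and 1491 to 2393 CPM in the combined group. Most of that sum was Gsn, at 777 to 1063, 1071 to 1437 and 1083 to 1751 CPM in the same groups. The sum therefore says little about the other markers. No marker was at 0 in any group. Mfap5, a microfibril protein of fibroblasts, was among the markers called under isoproterenol (1.84-fold higher, adjusted p = 0.0136, edgeR). Markers that did not pass included Pdgfra (log2 -0.03, adjusted p = 0.900, edgeR), Dpep1 (log2 0.12) and Tcf21 (log2 0.28). Of 12 markers of activated fibroblasts, such as Postn, 5 were called higher under isoproterenol and 7 in the combined group. Of 8 macrophage markers 7 were higher in each, and of 10 smooth muscle and pericyte markers 4 were higher in each, among them Higd1b and Notch3. Of 8 cardiomyocyte markers 3 were called lower in both, Myl3 (log2 -0.47 under isoproterenol), Myl2 (-0.40) and Myh6 (-0.36), and the summed level of all 8 lay lower in every isoproterenol library than in every control library. Of 7 tested valve and tendon-like markers 0 were called under isoproterenol and 1 in the combined group, and of 3 atrial markers 0 in both. The smooth muscle and pericyte list shares Pln with the cardiomyocyte list. The sum of the former had medians of 4490, 4202 and 4160 CPM in control, isoproterenol and combined libraries, with overlapping ranges. In whole ventricle, more cells of a type and more RNA per cell cannot be told apart. In a fit with the mean of the fibroblast markers as a covariate, 0 members were called, with Aspn at a log2 difference of 0.33 (adjusted p = 0.0612, edgeR) and Bgn at 0.09 (adjusted p = 0.639, edgeR). Calls over all tested genes fell as well, from 1669 to 739 with this covariate. Without the 4 libraries high in Myl7 both calls were lost, at a log2 difference of 0.68 for Aspn (adjusted p = 0.0640, edgeR, 14 libraries) and 0.49 for Bgn (adjusted p = 0.205, edgeR). Over all tested genes 681 were called without these libraries. The part of these markers and libraries in the result was not tested. Aspn was called in 18 of 18 fits that left out 1 library, and Bgn in 8 of 18. Bgn missed the threshold without control 1, 3, 4, 5 or 6, without isoproterenol 2, 3, 5 or 6, and without combined 2, with adjusted p up to 0.106 (edgeR).

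With both drugs, 4 members were higher than in control ventricles and 1 was lower. Aspn (31.8, 36.7 and 62.5 CPM, lowest, median and highest) was 1.55-fold higher than in controls (log2 0.63, adjusted p = 0.00633, edgeR), and its lowest library lay just under the highest control. Bgn (303, 394 and 587 CPM) was 1.56-fold higher (log2 0.64, adjusted p = 0.0143, edgeR). Dcn (506, 606 and 860 CPM) was 1.33-fold higher (log2 0.41, SE 0.13, adjusted p = 0.0312, edgeR). Lum (66.0, 83.7 and 134 CPM) was 1.44-fold higher (log2 0.52, adjusted p = 0.0468, edgeR). All 4 exceeded the control mean in 6 of 6 libraries, and each overlapped the control range. No member was free of overlap here, a property of 3.55% of tested genes in the higher and 3.59% in the lower direction. Ogn was the member that fell. Its control libraries stood at 74.6, 78.0 and 89.5 CPM and its combined libraries at 65.9, 69.5 and 80.1 CPM, which overlap. Ogn was lower by a log2 difference of -0.17 (SE 0.06, adjusted p = 0.0496, edgeR), with 5 of 6 combined libraries under the control mean. The other 4 members did not pass the test. Prelp covered 51.4 to 94.3 CPM in the combined group with a median of 68.8 CPM, and 5 of 6 libraries lay above the control mean. Fmod covered 4.14 to 14.4 CPM (log2 0.39, interval 0.816-fold to 2.12-fold), Podn 15.9 to 32.2 CPM (log2 0.01, interval 0.722-fold to 1.41-fold) and Omd 0.886 to 1.47 CPM (log2 0.31, interval 0.857-fold to 1.80-fold). All 4 overlapped the control range. In this comparison 19.3% of all tested genes were called, 10.2% higher and 9.05% lower. The members' median log2 fold change was 0.41, against 0.00 over all tested genes.

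**Figure D3:**
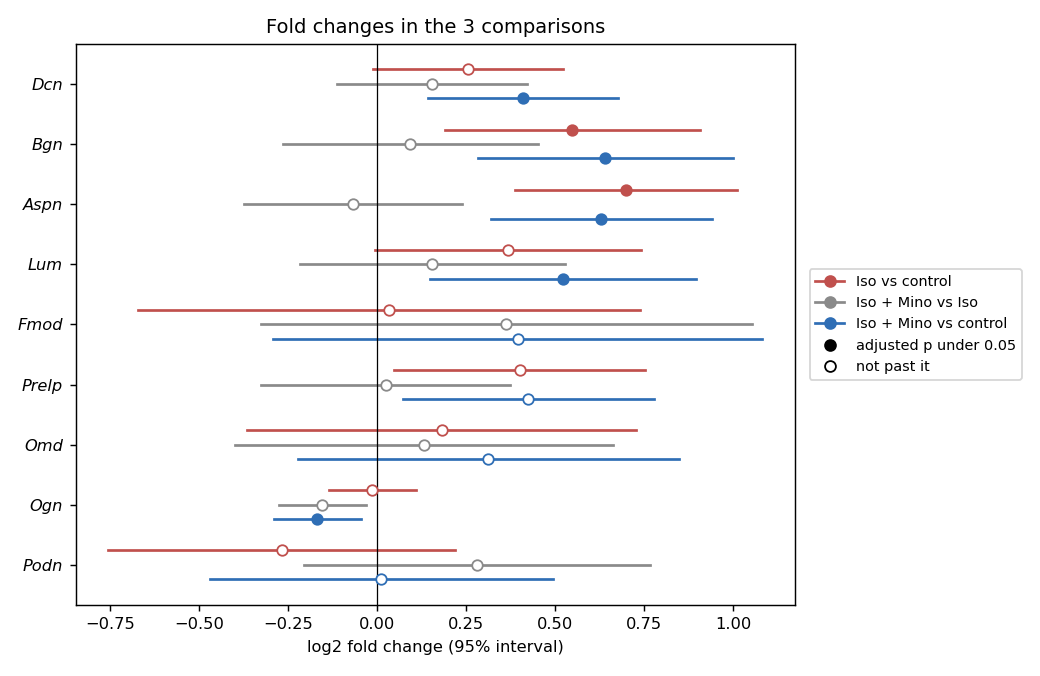
Log2 fold change of each member in the 3 comparisons; points are edgeR estimates and bars 95% intervals, with the 3 comparisons in colours and filled points past the threshold. The intervals of combined drugs versus isoproterenol include 0 for every member but Ogn.

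The calls of Dcn, Lum and Ogn depended on single libraries. Aspn and Bgn were called in 18 of 18 fits that left out a library. Dcn was called in 11 of 18, and was lost without control 1, 3, 4 or 6 or combined 2, 4 or 6. Lum was called in 6 of 18, and only without control 2, isoproterenol 4, 5 or 6, or combined 3 or 5. Ogn was called in 3 of 18, those without control 1, combined 2 or combined 3, and its adjusted p ranged up to 0.127 (edgeR). Prelp was not called (log2 0.42, adjusted p = 0.0831, edgeR), but edgeR called it without control 2 or without combined 1, and DESeq2 gave it an adjusted p of 0.0482. In 4 of the 5 called members the fibroblast covariate left a log2 difference between -0.07 and 0.13, and for Ogn -0.13. Without the 4 libraries high in Myl7 the differences were 0.61 for Aspn, 0.64 for Bgn, 0.35 for Dcn, 0.38 for Lum and -0.21 for Ogn, and 0 members were called. Over all tested genes, 1369 were called without these libraries and 593 with the covariate, from 2557. Of the fibroblast markers, 10 of 14 were called higher in this comparison. These control libraries also serve the comparison of isoproterenol with control, so the comparisons are not independent, and each is given with its own values.

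Adding minocycline to isoproterenol changed no member past the threshold. The count was 0 of 9 in edgeR and 0 of 9 in DESeq2, where edgeR called 0.0527% of all tested genes (0.00753% higher, 0.0452% lower). At an unadjusted p under 0.05 the count was 1 of 9, against 7.6% of all tested genes. That member was Ogn, at a log2 difference of -0.15 (adjusted p = 0.535, edgeR), with a 95% interval from 0.825-fold to 0.978-fold. For the others the intervals are what the data allow: Dcn 0.924-fold to 1.34-fold, Bgn 0.833-fold to 1.37-fold and Lum 0.860-fold to 1.44-fold. Aspn lay between 0.771-fold and 1.18-fold and Prelp between 0.797-fold and 1.30-fold. Fmod lay between 0.797-fold and 2.07-fold, Omd between 0.757-fold and 1.58-fold and Podn between 0.867-fold and 1.70-fold. A failure to pass the test does not show that the levels were equal.

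Ogn had the smallest spread of the 9 members. Its SD within groups was 0.09 on the log2 scale, and 24.9% of genes of like level had a smaller one. The SD was 0.42 for Podn, 0.24 for Dcn, 0.32 for Bgn, 0.33 for Lum, 0.31 for Prelp, 0.27 for Aspn and 0.58 for Fmod, and 88.7 to 98.9% of genes of like level had smaller ones. Omd had an SD of 0.43, where counting alone would give an SD of about 0.32. After group means were taken off, the 15 pairs of Dcn, Bgn, Lum, Fmod, Prelp and Aspn had a Pearson r of 0.675 to 0.94 over the 18 libraries. These 6 were grouped after the values were seen. Omd and Podn had r of 0.441 to 0.742 with each other and with these 6, and Ogn had r of -0.178 to 0.13 with the other members. These libraries share depth, composition and tissue sampling, and the correlations are descriptions only. With the mean of the fibroblast markers, r was 0.91 for Dcn, 0.90 for Bgn and 0.82 for Aspn, and -0.20 for Ogn. Among the genes most like Dcn were Serpinf1 (r = 0.97) and Ccdc80, and those most like Bgn were Ltbp2 (r = 0.98), Cilp and Ssc5d. Lum was closest to Ccdc80, Mgp and Serpinf1, with r of 0.92 to 0.93. Fmod was closest to Vim (r = 0.95), Prelp to Anxa8 (r = 0.95) and Aspn to Cilp (r = 0.94), Itgbl1 and Postn. Ogn was closest to Crot (r = 0.79), Smco1 and Celf2, which are in none of the fibroblast lists. Omd was closest to Cyp2e1 (r = 0.82) and Podn to Flrt2 (r = 0.88).

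**Figure D4:**
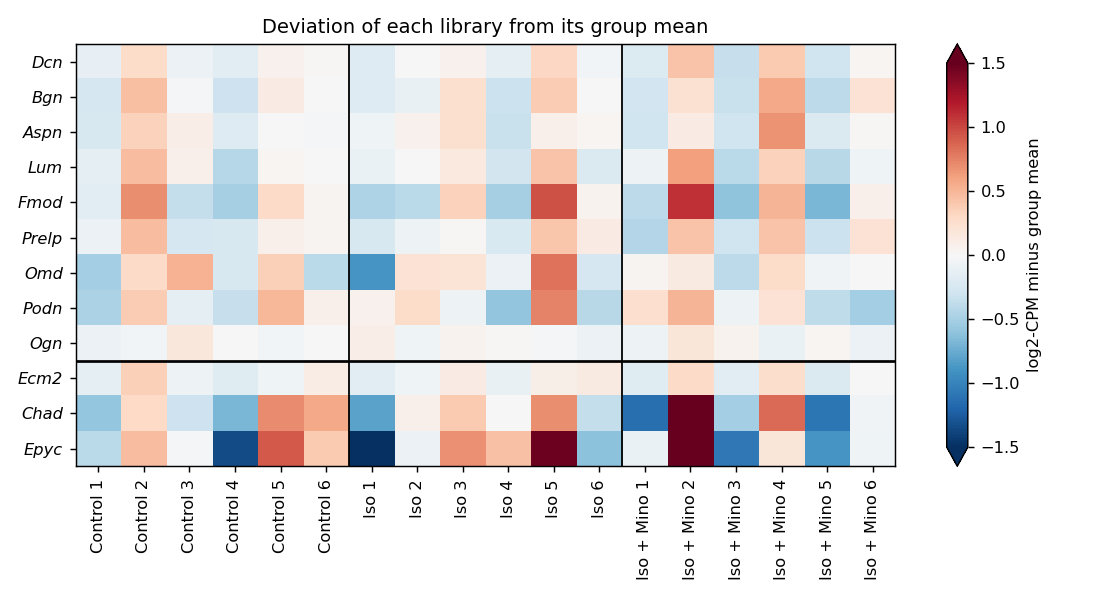
Log2-CPM of members and of Ecm2, Chad and Epyc in each library, minus the mean of its group (colour; columns are libraries, 6 per group; colours stop at the ends of the scale). Control 2, isoproterenol 5 and combined 2 and 4 are high in most members, and the Ogn row is nearly flat.

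The same few libraries were highest for many members. Control 2 was the highest control for 6 members, isoproterenol 5 the highest of its group for 7, and in the combined group library 2 was highest for 5 members and library 4 for the other 4. Isoproterenol 5 and combined 2 are among the libraries high in Myl7, but control 2 and combined 4 are not. Control 5 and control 6, which are high in Myl7, were highest for 1 and 0 members. Combined 2 also had the highest sum of 11 valve and tendon-like markers (61.2 CPM, against 20.7 to 38.2 CPM over the control and isoproterenol libraries). The combined group had a lowest sum of 24.4 CPM and a median of 29.2 CPM. Much of the sum came from few genes: Cytl1 reached 29.2 CPM and Wif1 11.6 CPM in the combined group. Fmod was 14.4 CPM there and 4.14 to 9.57 CPM in the other 5 combined libraries. The part of such tissue in these values was not tested.

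Most members lie beside relatives in the genome. Coordinates are those of the deposited table, whose build is not stated; 88.4% of gene identifiers have the same start and end in GENCODE M21 on GRCm38. On chromosome 10, Dcn (97479500 to 97518162) and Lum (97565501 to 97572703) precede Kera and Epyc within 203.0 kb. On chromosome 13, Aspn (49544443 to 49567557), Omd (49582766 to 49592609) and Ogn (49608071 to 49624500) follow Ecm2 within 119.7 kb. On chromosome 1, Prelp (133910304 to 133921414) and Fmod (134037254 to 134048277) lie with Optc within 151.1 kb. No other protein-coding gene starts and ends between neighbours of a group. Bgn lies on chromosome X (73483602 to 73495933), far from its relative Nyx, and Podn on chromosome 4 (108014791 to 108096445). Neighbours lay at different levels: Kera had at most 3 counts in a library beside Dcn and Lum, and Omd had 0.884 TPM between Aspn and Ogn. Aspn rose under isoproterenol, and its neighbour Ecm2, at 22.5 ± 3.42 and 23.1 ± 2.08 CPM in control and isoproterenol ventricles, had a log2 difference of 0.04 (adjusted p = 0.854, edgeR). Whether neighbours differ in response was not tested. Cenpp runs over the chromosome 13 genes on the opposite strand. Its exons overlap those of Aspn, and its 236 counts equal 1.9% of those of Aspn. Whether counting used strand is not stated, so reads from the shared exons cannot be told apart. Cenpp shares no exon with Omd, although its counts equal 62.9% of those of Omd. Scp2, on the same strand as Podn, overlaps its span without a shared exon. Scp2 has 809% of the counts of Podn and fell under isoproterenol (log2 -0.35, adjusted p = 0.000196, edgeR). Whether reads from introns or unannotated exons of these overlapping genes enter Omd or Podn was not tested.

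**Figure D5:**
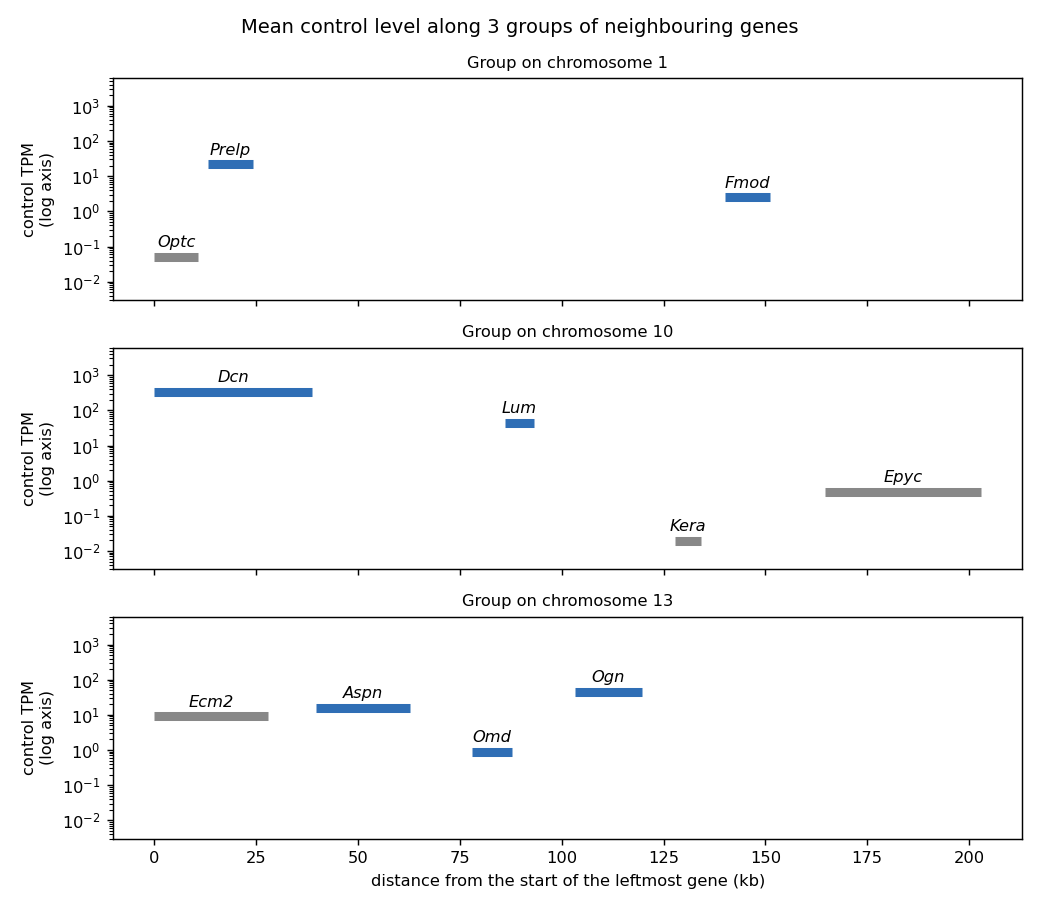
Mean control TPM (log axis, n = 6) of the genes in 3 neighbouring groups, drawn over each gene's span by distance in kb from the leftmost gene; blue lines are members and grey lines their relatives. Lum (44.1 TPM) and its near-silent neighbour Kera (0.0194 TPM) differ by orders of magnitude, while others, such as Ecm2 and Aspn, lie closer.

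RefSeq promoter windows on GRCm38.p6 are shown for Aspn and Bgn, the members called higher under isoproterenol, and for Ogn, the member called lower with both drugs. Each runs 5′ to 3′ over the 250 bases before the RefSeq start, all on the forward strand: Aspn at chr13:49544193-49544442, Bgn at chrX:73483351-73483600 and Ogn at chr13:49607765-49608014. Capitals mark TATAAA or its reverse complement in Aspn and Ogn, and the reverse complement of GGGCGG in Bgn.
Aspn: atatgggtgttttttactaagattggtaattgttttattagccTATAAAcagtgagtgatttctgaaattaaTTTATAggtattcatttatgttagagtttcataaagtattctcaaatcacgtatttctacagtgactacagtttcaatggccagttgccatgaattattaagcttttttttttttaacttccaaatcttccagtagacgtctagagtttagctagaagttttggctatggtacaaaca
Bgn: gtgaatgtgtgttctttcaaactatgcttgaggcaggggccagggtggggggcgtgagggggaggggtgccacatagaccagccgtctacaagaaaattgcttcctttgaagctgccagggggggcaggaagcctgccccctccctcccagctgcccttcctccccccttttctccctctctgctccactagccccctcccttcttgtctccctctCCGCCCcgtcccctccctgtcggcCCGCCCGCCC
Ogn: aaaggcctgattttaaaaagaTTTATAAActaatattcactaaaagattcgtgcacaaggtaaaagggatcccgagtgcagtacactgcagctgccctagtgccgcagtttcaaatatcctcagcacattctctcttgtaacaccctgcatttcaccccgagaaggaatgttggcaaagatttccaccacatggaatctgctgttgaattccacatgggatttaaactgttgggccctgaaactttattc
The GC content is 30.0% for Aspn, 64.4% for Bgn and 42.0% for Ogn. Only 1.5% of 32851 RefSeq windows have less GC than that of Aspn, against 81.6% for Bgn and 15.9% for Ogn. TATAAA, searched on both strands, occurs at -207 and -178 in Aspn and at -229 and -227 in Ogn, where the 2 matches overlap, and in 12.4% of all windows. GGGCGG occurs at -34, -10 and -6 in Bgn, the last 2 overlapping, and in 32.7% of all windows. Of 8 windows for 7 members with an entry, none held TGACGTCA or TGANTCA, which occur in 1.5% and 6.7% of all windows. A match is a description of these letters only.

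Genes of the same matrix were read from the same fit. The collagen list held fibrillar genes, the fibril-associated Col12a1 and Col14a1, and Col6 genes, which do not form such fibrils. Of its 12 tested genes, 7 were called higher under isoproterenol and 6 in the combined group, with median log2 fold changes of 0.48 and 0.53. Col14a1, a fibril-associated collagen, was 2.13-fold higher under isoproterenol (adjusted p = 0.000108, edgeR). Of 17 tested genes of processing and cleavage, 10 and 12 were higher, with medians of 0.60 and 0.57. That list held not only enzymes but also the protease inhibitors Timp1, Timp2 and Timp3 and the non-enzymatic Pcolce and Pcolce2. Timp1 was among the genes called higher under isoproterenol (3.25-fold, adjusted p = 0.00128, edgeR). The called enzymes included Adamts2, which trims procollagen (1.78-fold higher under isoproterenol, adjusted p = 0.000903, edgeR), and Ctsk, a collagen-degrading cathepsin (1.87-fold, adjusted p = 0.00125, edgeR). Of 26 tested genes of glycosaminoglycan chain synthesis, 2 were higher under isoproterenol and 7 in the combined group, with medians of 0.11 and 0.27. The first count is near the 6.94% of all tested genes called higher under isoproterenol, where the combined group has 10.2%. Under isoproterenol these were Papss1, which makes the sulfate donor (1.34-fold, adjusted p = 0.00836, edgeR), and Dse, a dermatan sulfate epimerase (1.29-fold, adjusted p = 0.0441, edgeR). Dsel and Chst14, which also act on dermatan sulfate, were called in the combined group at 1.45-fold and 1.49-fold. Of 25 tested growth factors and receptors bound by the family, 4 were higher under isoproterenol, among them Tgfb2 (1.47-fold, adjusted p = 0.0324, edgeR) and Cd44, a hyaluronan receptor (1.55-fold, adjusted p = 0.00179, edgeR). In the combined group 8 were higher and 1 lower. Of 18 other proteoglycans, 2 were higher under isoproterenol, Gpc6 and Gpc4, and 5 in the combined group. Of 5 tested small leucine-rich relatives, Chadl was called in both comparisons (1.81-fold under isoproterenol, adjusted p = 0.0428, edgeR) at 5 to 22 counts a library. Chadl is uncertain, since its exons overlap those of L3mbtl2 on the opposite strand, which has 3067 counts against 245 for Chadl. No gene of any of these lists was called between the combined and the isoproterenol group, where 0.0527% of all tested genes were called. A count of 0 is near that share. The lists were chosen with earlier results of these data known.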

How the data were processed

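Reads were trimmed and analysed in CLC Genomics Workbench 21.0.3, per the labels' protocols; the submitters' processing notes also name edgeR, for an unstated step. For mapping, strand handling and the genome build nothing is given in the sources used here. The authors deposited a table of counts per gene and library, and of TPM values, for 48709 genes in 18 libraries, 6 for each of 3 groups named by the labels' treatment field. The deposited counts were used for all tests. The deposited TPM values were used only to compare levels between genes. Per-sample columns matching no library numbered 0.

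Genes kept by filterByExpr (13281, holding at least 99.93% of the counts of each library) were fitted with edgeR 4.0.16 in R 4.3.3 (TMM scaling, robust glmQLFit, glmQLFTest) in a single fit of 18 libraries. P-values were 2-sided and adjusted by Benjamini-Hochberg over all tested genes, with 0.05 as the limit for a call. CPM uses TMM-scaled library sizes, and log2-CPM a prior count of 2. The biological coefficient of variation was 13.2%. The script was tested on simulated data with 200 seeded genes. Alternatives were DESeq2 1.42.0, RLE and upper-quartile scaling, no filter, the 12 libraries of a comparison, no mitochondrially encoded genes, no libraries above 80 CPM of Myl7, a fibroblast marker covariate and each library left out in turn. Named genes were all members, up to 4 called genes per list and comparison with the smallest p, defining markers, genomic neighbours and the 3 genes closest to each member by correlation, of which 1 is not reported here. The members and lists were chosen with earlier results of these data known.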

Additional observations from a re-analysis of the deposited data

Results flagged for a closer look

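In 4 of 42 sets of 6 libraries (14 genes of the family in 3 groups), 1 library lay far from the others, with a gap to its nearest neighbour, as a share of the range, above Dixon's critical value. Chance alone gives about 1 in 20 such sets. Ogn in control 3 was 89.5 CPM, with a gap of 0.635 of the range. Aspn in combined 4 was 62.5 CPM, with a gap of 0.641. Epyc in combined 2 was 4.34 CPM, with a gap of 0.807, in the library with the highest Myl7. Tsku in isoproterenol 5 was 5.13 CPM, with a gap of 0.717.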

How the results depend on the processing

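Counts were low for Omd (8 to 30 a library), Chadl (5 to 22) and Epyc (1 to 99), which limits their precision. The cause of the changes below was not tested. Without the 4 libraries high in Myl7, 681 genes were called for isoproterenol versus control, 1 for the combined group versus isoproterenol and 1369 for the combined group versus control, from 1669, 7 and 2557. With the fibroblast covariate the counts were 739, 15 and 593. DESeq2 called 37 genes between the combined and the isoproterenol group, and a fit of those 12 libraries called 2. Members called for isoproterenol versus control numbered 1 with upper-quartile scaling or no filter, and 0 without the Myl7 libraries or with the covariate. Members called for the combined group versus control numbered 3 with upper-quartile scaling, 2 without a filter, 2 in the 12 libraries, and 0 without the Myl7 libraries or with the covariate. Leaving out each library gave 1079 to 1877, 1 to 13 and 1789 to 2930 genes, and 1 to 2, 0 to 0 and 2 to 5 members, with the lowest counts of genes without control 4, isoproterenol 6 and control 4. No paired analysis was possible because the labels give each library a number of its own.

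With the covariate, log2 differences turned for isoproterenol versus control in Dcn (-0.102), Lum (-0.063), Fmod (-0.758), Ogn (0.014), Prelp (-0.039), Omd (-0.155) and Ecm2 (-0.208). For the combined group versus isoproterenol they turned in Bgn (-0.068), Prelp (-0.138) and Tsku (-0.177). For the combined group versus control they turned in Dcn (-0.074), Lum (-0.055), Fmod (-0.719), Prelp (-0.177), Omd (-0.126), Podn (-0.406), Epyc (-1.01), Chad (-1.35), Tsku (-0.042) and Col18a1 (-0.089). Without the Myl7 libraries Fmod (-0.152) and Omd (-0.03) turned for isoproterenol versus control.

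Leaving out single libraries turned small differences. For isoproterenol versus control the log2 difference ran from -0.213 to 0.208 in Fmod, -0.032 to 0.022 in Ogn, -0.019 to 0.321 in Omd and 0 to 0.119 in Ecm2. For the combined group versus isoproterenol it ran from -0.037 to 0.181 in Bgn, -0.067 to 0.121 in Prelp, -0.005 to 0.335 in Omd, -0.204 to 0.022 in Chadl and -0.109 to 0.16 in Tsku. For the combined group versus control it ran from -0.097 to 0.122 in Podn, -0.078 to 0.059 in Ecm2, -0.07 to 0.973 in Epyc and -0.244 to 0.623 in Chad.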
